A study of Mus musculus with 2744 samples.

Results

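The genes described here are 8 members of the Hoxa cluster on mouse chromosome 6, namely Hoxa2, Hoxa3, Hoxa4, Hoxa5, Hoxa6, Hoxa7, Hoxa9 and Hoxa10. They were chosen by name and place in the cluster, not by their values, and all 8 are among the 23968 genes of the deposited tables. Messenger RNA had been sequenced in 2744 single cells of cultures in which mouse embryonic stem cells were turned into motor neurons. Embryoid bodies, the round aggregates in which such cells differentiate, were dissociated with papain and sorted singly into plates, and libraries were made with a modified CEL-seq, a method that primes at the poly(A) tail and amplifies by transcription. The groups are Day 2, Day 3, Day 4, Day 5 and Day 6 without an eGFP label and Day 6 eGFP++ cells, each in a main and a pilot experiment, and eGFP+ cells of Day 6, which fill 1 plate of the main set. All groups come from the same kind of differentiation and no allele or agent separates them in the labels. The stem cell line, its genotype, the agents and doses of the differentiation and the promoter behind eGFP are not given in the sources used here. A published differentiation method is cited, and it is known for using retinoic acid and an agonist of Hedgehog signalling.

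Hox genes encode homeodomain transcription factors that give cells their place along the axis from head to tail. In each cluster the genes lie in one orientation, and those near the 3′ end of the cluster are known to be switched on earlier and closer to the head than those near the 5′ end, which is called collinearity. Retinoic acid is a known activator of the 3′ genes, and Polycomb complexes are known to hold silent Hox genes in a repressed state. In motor neurons the Hox proteins present set the position and the muscle target of a cell. Within the cluster, Hoxa2 is known for its role in the hindbrain and branchial arches, Hoxa3 in caudal hindbrain, thymus and parathyroid, and Hoxa4 at the level of caudal hindbrain and neck. Hoxa5 is needed in the motor neurons of the phrenic nerve and in lung. Hoxa6 and Hoxa7 act at lower cervical and thoracic levels, Hoxa9 at thoracic and more caudal levels and in blood stem cells, and Hoxa10 at lumbar levels and in the uterus.

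In GENCODE M21 (GRCm38, the build called mm10) all 8 genes are protein coding and lie on the minus strand. Hoxa2 spans chr6:52162417-52164831, Hoxa3 chr6:52169062-52213336, Hoxa4 chr6:52189671-52191753 and Hoxa5 chr6:52201754-52204587. Hoxa6 spans chr6:52206288-52208722, Hoxa7 chr6:52214491-52221854, Hoxa9 chr6:52223100-52231089 and Hoxa10 chr6:52231197-52240854. Hoxa2 is thus the nearest of the 8 to the 3′ end of the cluster, and Hoxa10 is followed on the 5′ side by Hoxa11 and Hoxa13. The annotated span of Hoxa3 encloses Hoxa4, Hoxa5 and Hoxa6, and its outermost start lies between Hoxa6 and Hoxa7.

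RefSeq promoter windows (GRCm38.p6, from 250 bases before to 50 bases after a start site) were at hand for 7 of the 8 genes, with none for Hoxa4. Those of Hoxa2, Hoxa3 and Hoxa5 are printed because these genes carry the order of appearance described below, and those of Hoxa2 and Hoxa3 are the poorest and the richest in G and C of the 7 genes. Each is given 5′ to 3′ on the gene's strand, with capitals marking the only matches to the motifs searched. The Hoxa2 window is chr6:52164782-52165081, that of Hoxa3 chr6:52213018-52213317 and that of Hoxa5 chr6:52204538-52204837, all on the minus strand.
Hoxa2: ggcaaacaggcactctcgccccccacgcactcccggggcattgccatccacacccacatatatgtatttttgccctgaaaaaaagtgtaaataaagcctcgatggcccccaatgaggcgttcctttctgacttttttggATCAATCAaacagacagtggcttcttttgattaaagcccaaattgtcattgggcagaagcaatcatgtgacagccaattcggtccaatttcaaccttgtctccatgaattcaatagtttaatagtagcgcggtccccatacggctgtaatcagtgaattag
Hoxa3: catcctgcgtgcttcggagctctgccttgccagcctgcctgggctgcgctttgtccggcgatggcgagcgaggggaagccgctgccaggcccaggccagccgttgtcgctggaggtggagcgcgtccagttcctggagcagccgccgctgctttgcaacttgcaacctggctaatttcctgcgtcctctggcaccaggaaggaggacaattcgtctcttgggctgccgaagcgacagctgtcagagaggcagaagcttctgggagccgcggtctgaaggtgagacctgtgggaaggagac
Hoxa5: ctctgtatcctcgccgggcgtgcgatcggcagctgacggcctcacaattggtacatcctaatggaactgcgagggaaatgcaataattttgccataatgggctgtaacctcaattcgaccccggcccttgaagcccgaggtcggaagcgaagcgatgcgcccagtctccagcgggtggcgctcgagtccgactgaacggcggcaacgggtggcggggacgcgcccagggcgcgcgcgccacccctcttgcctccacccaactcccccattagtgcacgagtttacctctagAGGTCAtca
The motifs were searched on both strands. In Hoxa2 the capitals are the reverse complement of TGATTNAT, a site of Pbx and Hox proteins, upstream of the start, a motif found in 3.22% of all 32851 windows of this length. In Hoxa5 they are AGGTCA, a nuclear receptor half-site, 42 bases after the start, found in 16.3% of windows. The Hoxa3 window held none of these motifs. TTTATG, a site of Cdx proteins, occurred at 2 places in the Hoxa7 window and in 11.9% of all windows. AGTTCA, the alternative half-site, was in none of the windows of the 7 genes and in 13.99% of all windows, and the direct repeat of half-sites with a spacer of 5 was also in none and in 0.1% of all. G and C made up 45.7% of the Hoxa2 window, 64% of that of Hoxa3 and 61.7% of that of Hoxa5, against a median of 52.7% over all windows. CpG dinucleotides numbered 9 in Hoxa2, 20 in Hoxa3 and 29 in Hoxa5, against a median of 7. These matches are letters only, with no binding data behind them.

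Of the 2744 cells, 2448 had at least 500 genes with a read and were kept, at least 39 per group and experiment. Their reads summed to between 16370502 and 100972780 per group and experiment. A level below is the CPM of such a sum, a gene's reads per 1000000 gene reads, and a share is the percent of cells with at least 1 read after each cell was thinned at random to 10000 reads, with its 95% Wilson interval, which covers counting error only. Sums over cells do not tell apart fewer expressing cells and less RNA per cell. The 2 experiments are the replicates, and the pilot was sequenced more deeply per cell, with 73 reads as the median of a detected gene against 13 in the main. In 4 of the 35 plates, cells had few genes, among them 1 of Day 3 main, 1 of Day 4 main, 1 of Day 4 pilot and the eGFP+ plate. Summed markers of pluripotent cells fell from 4356 CPM on Day 2 to 12.3 on Day 6 in the main experiment and, in the pilot, from 3099 to 31.4, and 5 of the 6 genes had a falling slope that passed the test. Over the same days motor neuron markers summed to 15.1 and then 682 CPM in the main and to 20.97 and then 581 CPM in the pilot, with 4 of 7 genes passing, and reached 1624 and 2061 CPM in eGFP++ cells.

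Levels of Hoxa2 to Hoxa5 lay at or under 1.57 CPM on Day 2 and between 32.1 and 1129 CPM on Day 6, and Hoxa7 reached 15.8 CPM in the main experiment, and 5.15 CPM in the pilot. Hoxa6, Hoxa9 and Hoxa10 stayed under 1.2 CPM in every sum. Along the cluster, well detected genes thus ended at Hoxa5, and beyond it Hoxa7 alone was found in more than 2% of cells on a day. Among Hoxa2 to Hoxa5, the order of appearance depended on the measure and the experiment. By the first day with at least 5% of cells, Hoxa5, the most 5′ of the 4, was the first or among the first in both experiments. By the first day at 50% of the highest level, the 4 genes shared Day 5 in the main experiment, while in the pilot Hoxa2 came first and Hoxa3 and Hoxa5 last.

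**Figure D1:**
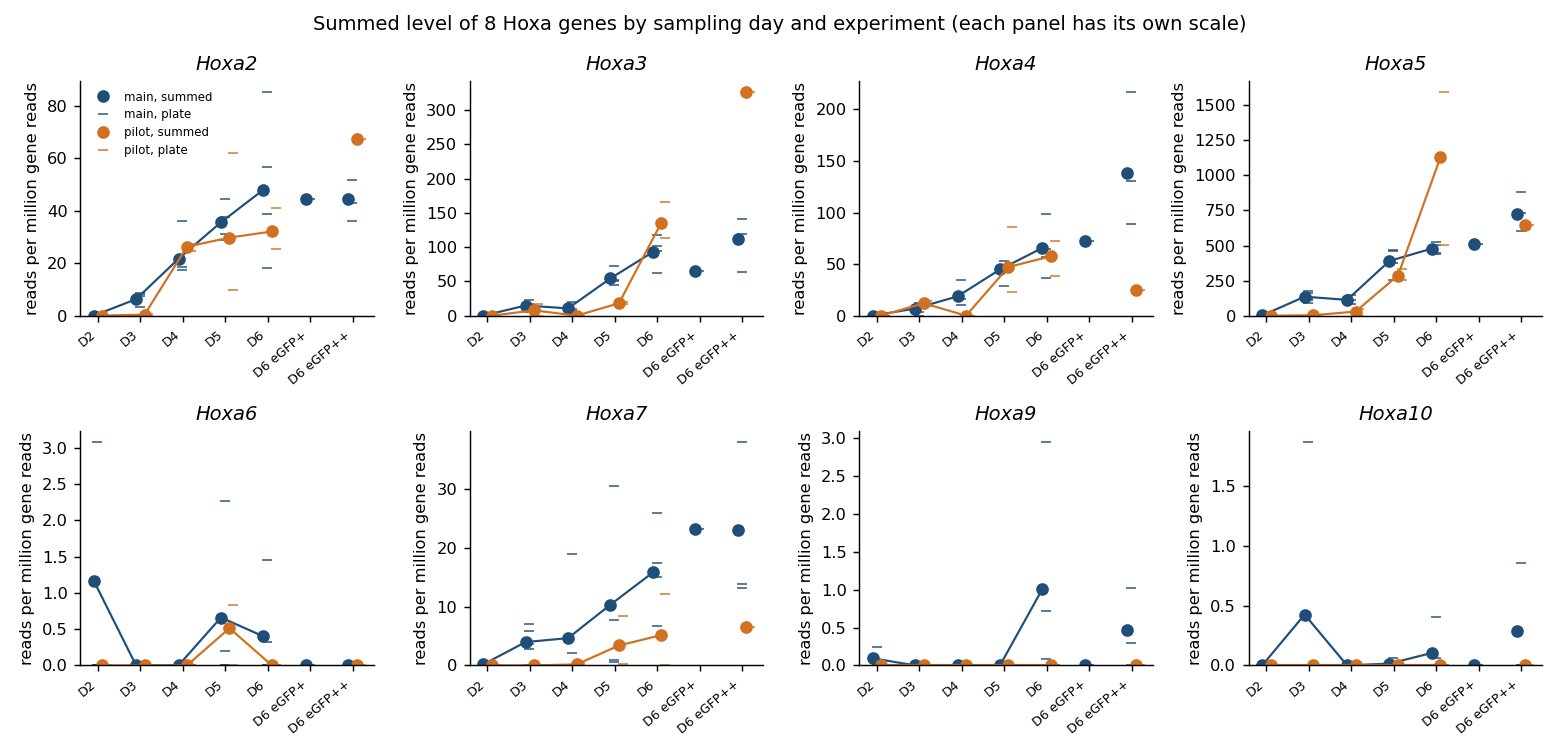
Summed level of the 8 genes in CPM (vertical axes, each on its own linear scale from 0) over the groups (horizontal axes, D2 to D6 for Day 2 to Day 6). Blue marks the main and orange the pilot experiment, dots are sums over the kept cells, dashes single plates, and lines join the days without an eGFP label. Hoxa2 to Hoxa5 and Hoxa7 are highest on Day 6 among the days in both experiments, while the panels of Hoxa6, Hoxa9 and Hoxa10 end under 3.2 CPM in every plate.

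Hoxa2, the most 3′ of the 8, was not detected in the Day 2 cells of the main experiment and had 1 read in the pilot Day 2 sum. Its main CPM was 6.29 on Day 3, 21.7 on Day 4, 35.6 on Day 5 and 47.95 on Day 6. In the pilot it was 0.417 on Day 3, all from 1 cell, then 26.3, 29.7 and 32.1 on Days 4 to 6. The Hoxa2 level was thus higher on each later day in both experiments, but the pilot Day 4 value rested on 3 of 57 cells, 1 of which held 62.2% of the reads, and the pilot plates of Day 5 (9.71 and 61.9 CPM) and Day 6 (25.5 and 40.9 CPM) overlapped. The share of main cells was 3.32% (1.99 to 5.49) on Day 3, 9.73% on Day 4, 22.1% (17.9 to 26.9) on Day 5 and 16.4% (12.9 to 20.6) on Day 6. In the pilot it was 0, 3.51, 12 and 18.3% on the same days. From Day 5 to Day 6 of the main experiment the share and the level of Hoxa2 went opposite ways, so no direction is read from either. The same cells had a median of 3614.5 detected genes on Day 5 and 2310.5 on Day 6, and the part of this in the shares was not tested. Gm28308, an annotated gene on the same strand, covers 15% of the exon bases of Hoxa2.

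Hoxa3 had 1 read among the main Day 2 cells and none in the pilot. Main CPM was 14.8 on Day 3, 10.7 on Day 4, 54.4 on Day 5 and 92.97 on Day 6. Pilot CPM was 7.82, 0.0166, 18.1 and 135.9 on the same days. Plates of Day 3 and Day 4 overlapped in the main experiment, at 11.8 to 22.4 and 7.40 to 19.5 CPM, and the pilot Day 4 sum held a single read. The pilot Day 3 value came from 2 cells, with 71.3% of the reads in 1 of them. Shares of main cells were 7.58% (5.42 to 10.5) on Day 3, 8.85% on Day 4, 27.9% on Day 5 and 29.7% (25.1 to 34.6) on Day 6, and pilot shares were 2.90, 0, 6.67 and 38.03%. Reads of Hoxa3 share exon sequence with annotated neighbours that are not in the tables used here, most with the antisense gene Hoxaas2, which covers 8.4% of its exon bases. Gm28308, on the same strand as Hoxa3, covers 8% of these bases. Whether strand was used in the counting is not stated, and strand would not separate Gm28308 from Hoxa2 or Hoxa3.

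Hoxa4 had no read on Day 2 in either experiment, which allows up to 0.845% of main and 4.05% of pilot cells at this depth. Main CPM was 6.92 on Day 3, 18.7 on Day 4, 44.8 on Day 5 and 65.7 on Day 6. Pilot CPM was 12.1 on Day 3, from 4 cells, then 0 in 57 cells on Day 4, 47.2 on Day 5 and 57.6 on Day 6. The main values were higher on each later day and the pilot values were not. Main plates of each day overlapped with those of the next, at 0 to 12.2, 9.90 to 34.5, 28.4 to 53.3 and 36.1 to 98.2 CPM on Days 3 to 6. Shares of main cells were 4.50% (2.90 to 6.93), 8.41%, 20.9% and 19.5% on Days 3 to 6, and of pilot cells 2.90, 0, 18.7 and 12.7%. From Day 5 to Day 6 the share was lower and the level higher in both experiments, so no direction is read for that step. The antisense gene Gm29430 covers 16% of the exon bases of Hoxa4.

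Hoxa5 had the highest CPM per kilobase of exon of the 8 genes on each of Days 4, 5 and 6 in both experiments. Main CPM was 1.57 on Day 2 and 135.5 on Day 3, then 112.7 on Day 4, 390.5 on Day 5 and 478.4 on Day 6. Pilot CPM was 0.0190 on Day 2 and 3.36 on Day 3, then 29.3 on Day 4, 286.4 on Day 5 and 1129 on Day 6. The main level was thus above 100 CPM from Day 3 on and the pilot level from Day 5 on, and the pilot Day 3 sum came from 5 cells, 1 of which held 88.4% of the reads. Main plates ranged from 0 to 4.37 CPM on Day 2, from 91.5 to 175.1 on Day 3, from 81.3 to 148.8 on Day 4, from 253.8 to 471.2 on Day 5 and from 436.8 to 522 on Day 6. Day 2 plates did not overlap with those of Day 3, nor Day 4 plates with those of Day 5, while Days 3 and 4 and Days 5 and 6 overlapped. Shares of main cells were 1.41% (0.603 to 3.25) on Day 2 and 30.3% (26.1 to 34.9) on Day 3, then 30.1% on Day 4, 76.1% (71.2 to 80.4) on Day 5 and 61.9% (56.7 to 66.8) on Day 6. In the pilot they were 0, 1.45, 7.02, 46.7 and 74.7% on Days 2 to 6. Without thinning, Hoxa5 was found in 51.9% of main Day 3 cells, 92.5% of Day 5 cells and 75.4% of Day 6 cells, and in 90.1% of pilot Day 6 cells. As with Hoxa2, main level and share went opposite ways from Day 5 to Day 6.

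Against Day 2, main Day 6 CPM was at least 1188-fold higher for Hoxa2 and at least 1627-fold higher for Hoxa4, taking 3 reads as the floor of a sum with none. Reads carry no molecular identifiers, and a detected gene had a median of 13 reads per main cell and 73 per pilot cell. Reads of a gene in a cell are thus not independent. The floor and the intervals of this paragraph treat them as independent, so neither is a firm bound. Hoxa5 was 303.9-fold and Hoxa7 97.8-fold higher. For Hoxa3 the ratio was 6907 with a counting interval of 1240 to 272900, since Day 2 held 1 read. In the pilot experiment Hoxa3 was at least 2380-fold, Hoxa4 at least 1009-fold and Hoxa7 at least 90.3-fold higher. Pilot Hoxa2 and Hoxa5 had 1 read each on Day 2, and the ratio of Hoxa5 was 59330 (10650 to 2343000). Every one of these 5 genes was thus far above Day 2 in both experiments, and, other than for main Hoxa5 and Hoxa7, the Day 2 sums behind these ratios held at most 1 read.

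Hoxa6, next to Hoxa5 on the 5′ side, was almost silent. Its main reads were 87 on Day 2, all in 1 cell, 45 in 3 cells on Day 5 and 23 in 2 cells on Day 6, with none on Days 3 and 4 or in the eGFP groups. The pilot held 31 reads, in 1 cell of Day 5. No day had more than 1.33% of cells with a Hoxa6 read. On Day 6, per kilobase of exon, Hoxa6 stood at 0.458 CPM against 254.9 CPM for Hoxa5 in the main experiment. The ends of the 2 annotated genes lie near each other and their exons do not overlap.

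Hoxa7 had main CPM of 0.162 on Day 2 and 3.96 on Day 3, then 4.63 on Day 4, 10.3 on Day 5 and 15.8 on Day 6. Pilot CPM was 0 on Days 2 and 3, 0.166 on Day 4, 3.38 on Day 5 and 5.15 on Day 6. The level was higher on each later day of the main experiment and from Day 4 on in the pilot, but it was carried by few cells. Shares were 1.66% of main cells on Day 3, 0.443% on Day 4, 2.15% on Day 5 and 4.24% (2.58 to 6.87) on Day 6, and 4.22% of pilot cells, 3 of 71, on Day 6. Of the main Day 4 reads 84.2% came from 1 cell. The pilot Day 6 reads all came from 1 of 2 plates. The antisense gene Hoxaas3 covers 20.4% of the exon bases of Hoxa7, and reads of the pair cannot be told apart if the counting did not use the strand.

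Hoxa9 had 7 reads in 1 main Day 2 cell, none on Days 3 to 5, 58 reads in 4 cells on Day 6 and 24 reads in 2 eGFP++ cells. Hoxa10 had 43 reads in 2 main Day 3 cells, 1 read on Day 5, 6 reads in 4 cells on Day 6 and 15 reads in 1 eGFP++ cell. Neither gene had a read in the pilot experiment, where no read among 71 Day 6 cells allows a share of up to 4.23%. Shares after thinning were at most 0.355% for either gene, within the 0.845% that no read among the main Day 2 cells allows, so no appearance of Hoxa9 or Hoxa10 was detectable at this depth. Beyond them on the 5′ side, Hoxa11 and Hoxa13 had no read in any group.

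By the first day on which at least 5% of thinned cells held a read, the main order was Hoxa3 and Hoxa5 on Day 3, then Hoxa2 and Hoxa4 on Day 4. In the pilot it was Hoxa5 on Day 4, then Hoxa2, Hoxa3 and Hoxa4 on Day 5. Hoxa6, Hoxa7, Hoxa9 and Hoxa10 never reached 5%. On main Day 3, the intervals of Hoxa2 and Hoxa4 overlapped, as did those of Hoxa4 and Hoxa3, while that of Hoxa5 lay above all 3. These are shares of the same cells, so separate intervals cannot settle the order of neighbours, and differences between genes were not tested. With 2% as the limit, Hoxa2 to Hoxa5 all appeared on Day 3 of the main experiment. In the pilot, Hoxa3 and Hoxa4 then came on Day 3, with 2 cells each, and Hoxa2 and Hoxa5 on Day 4. Hoxa7 reached 2% on Day 5 of the main and Day 6 of the pilot experiment. With 10% as the limit, Hoxa5 came on Day 3 of the main experiment and the other 3 on Day 5, while in the pilot Hoxa2, Hoxa4 and Hoxa5 came on Day 5 and Hoxa3 on Day 6. Hoxa5 was thus not ahead of the others under every limit.

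A share depends on how abundant a gene is, so each gene was also set against its own highest daily CPM, which fell on Day 6 for Hoxa2 to Hoxa5 and Hoxa7 in both experiments. On Day 3 of the main experiment Hoxa2 stood at 13.1% of its highest level, Hoxa3 at 15.9%, Hoxa4 at 10.5%, Hoxa5 at 28.3% and Hoxa7 at 25.1%. On Day 4 the values were 45.2% for Hoxa2, 11.5% for Hoxa3, 28.5% for Hoxa4, 23.6% for Hoxa5 and 29.3% for Hoxa7. All 5 genes passed 50% on Day 5. The pilot differed, with Hoxa2 already at 81.9% on Day 4, Hoxa4 at 81.96% and Hoxa7 at 65.6% on Day 5, and Hoxa3 and Hoxa5 at 13.3% and 25.4% on Day 5 before their highest value. Over these days the CPM-weighted mean day of Hoxa2, Hoxa3, Hoxa4 and Hoxa5 was 5.12, 5.30, 5.24 and 5.08 for main and 5.05, 5.74, 5.29 and 5.75 for pilot sums. As a description over the 4 genes, Spearman's rho of that mean day with the place in the cluster was -0.4 for the main and 0.8 for the pilot experiment. Rank of timing and place therefore had opposite signs in the 2 experiments, over 4 points that share the same libraries. Without the pilot Day 6 plate in which Hoxa5 was highest, the pilot rho was 0.4, and the Day 5 level of Hoxa5 stood at 57.11% of Day 6.

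The highest share that a gene reached was lower on the 5′ side of the cluster. Spearman's rho of the highest share with the place was -0.81 for main and -0.75 for pilot values over 8 points, as a description. Within Hoxa2 to Hoxa5 it was 0.4 and 0.8, with Hoxa5 the most widespread of the 4. Per kilobase of annotated exon, main Day 6 CPM was 27.01 for Hoxa2, 15.5 for Hoxa3, 41.2 for Hoxa4, 254.9 for Hoxa5, 5.49 for Hoxa7, 0.458 for Hoxa6, 0.181 for Hoxa9 and 0.0320 for Hoxa10. In the pilot the same scale gave 18.1 for Hoxa2, 22.6 for Hoxa3, 36.1 for Hoxa4, 601.5 for Hoxa5 and 1.79 for Hoxa7. Hoxa5 led and Hoxa4 followed on this scale in both experiments. CEL-seq reads come mostly from transcript ends, so exon length need not set the read number, and without the division main Hoxa3 stood above Hoxa4.

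**Figure D2:**
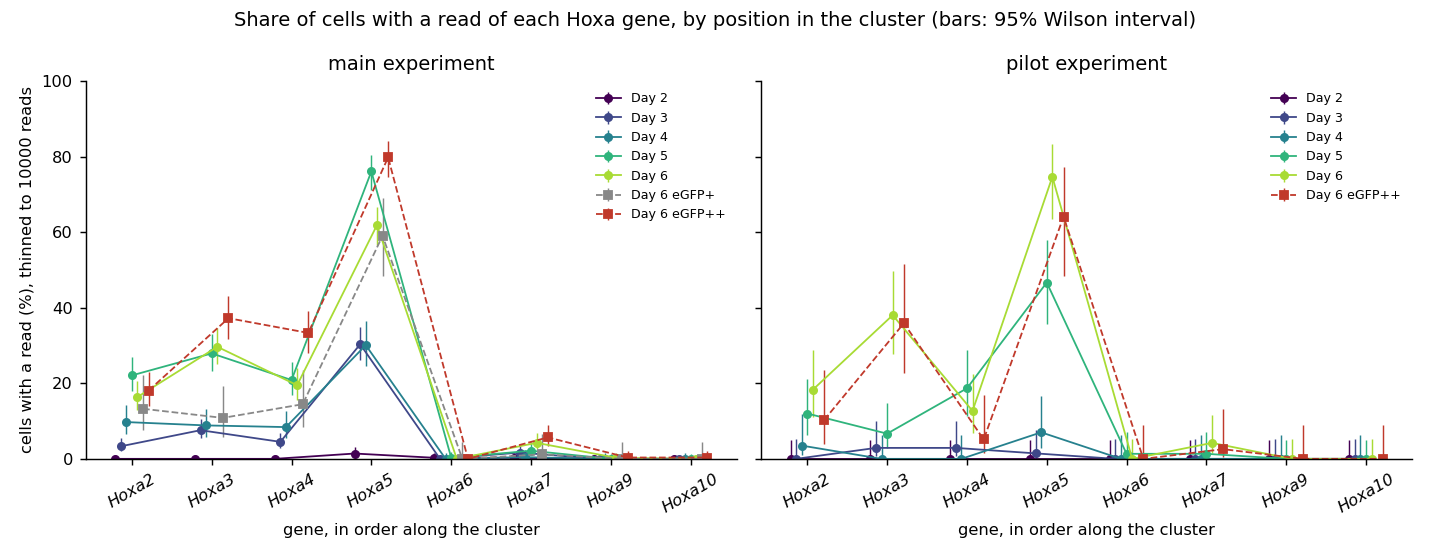
Share of cells with a read after thinning to 10000 reads (vertical axis, percent, with 95% Wilson intervals) for the 8 genes in their order along the cluster (horizontal axis), for each group in the main (left) and pilot (right) experiment. Lines join the genes of 1 group. The share peaks at Hoxa5 in every main group and in the pilot from Day 4 on, up to 79.8% in main eGFP++ cells, but not on pilot Day 3, where Hoxa3 and Hoxa4 are at 2.90% and Hoxa5 at 1.45%. It is under 2% at Hoxa6 in every group.

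The counts of Days 2 to 6 were tested with edgeR's quasi-likelihood model over all genes, with the experiment as a term and Benjamini-Hochberg adjustment. Of the 8 genes, 6 passed the filter on low counts in the test of a slope over days, and Hoxa5 alone passed the threshold, with a slope of 2.43 ± 0.52 (SE) log2 units per day and adjusted p = 0.02393. Among all 15971 genes tested, 4.18% passed. Hoxa7 had a slope of 2.14 ± 0.65 with adjusted p = 0.08583, Hoxa2 2.00 ± 0.66 with 0.1172, Hoxa3 1.65 ± 0.55 with 0.1167 and Hoxa4 1.55 ± 0.65 with 0.2177. All 5 were positive and had unadjusted p under 0.05, as had 3119 of all 15971 genes in either direction. Hoxa6, the sixth tested, had 0.22 ± 0.87. Without the experiment as a term the adjusted p of Hoxa5 was 0.06651. It was 0.07798 without the main Day 2 sum, 0.06611 without the pilot Day 2, 0.06163 without the pilot Day 3 and 0.131 without the pilot Day 6 sum, so the call rests on each of these sums.

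Against Day 2, which all of the next comparisons share, 3 of the 8 genes passed on Day 6, against 0.833% of the 16080 genes tested. These were Hoxa2 (11.79 ± 1.83 log2 units, adjusted p = 0.01805), Hoxa3 (13.86 ± 2.58, 0.0384) and Hoxa5 (11.18 ± 1.94, 0.02817) by edgeR. Hoxa4 gave 15.19 ± 3.38 with adjusted p = 0.0882 and Hoxa7 8.34 ± 2.88 with 0.2531, both not passing. Fitted changes against sums at or near 0 depend on the added prior count and are no bound on the change. The median over the 8 genes was 9.76 and over all genes 0.17. Over 23 alternative settings, Hoxa3 did not pass in 7, Hoxa2 in 4 and Hoxa5 in 2. None of the 3 passed without the pilot Day 2 or the pilot Day 6 sum, and 1 passed without the main Day 2 or the main Day 6 sum.

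On Day 5, Hoxa2 alone passed (11.45 ± 1.81, adjusted p = 0.03618 by edgeR), while Hoxa5 gave 9.38 ± 1.80 with 0.08277, and 0.243% of all genes passed. Hoxa2 did not pass on Day 5 without either sum of Day 2, Day 5 or Day 6 (adjusted p 0.07198 to 0.2042) or without the plates with few genes (0.0623). On Day 4 none of the 8 genes passed by edgeR, against 0.0746% of all genes. By DESeq2 4 passed, but the share of all genes that passed by it is not given. The DESeq2 count is therefore not set against that percentage. At unadjusted p under 0.05 by edgeR stood 4 of the 8 and 1082 of all 16080 genes. Hoxa2 came nearest, at 11.08 ± 1.79 with adjusted p = 0.07673, and it passed without the experiment as a term (0.04019). Hoxa5 had 6.79 ± 1.60 with 0.3101. On Day 3 none passed by edgeR, against 0.0498% of all genes. Again 4 passed by DESeq2, with its share of all genes not given. At unadjusted p under 0.05 by edgeR stood 4 of the 8 and 587 of all 16080 genes. The fitted Day 3 changes were 8.11 ± 1.68 for Hoxa2, 10.28 ± 2.37 for Hoxa3, 12.68 ± 3.25 for Hoxa4 and 6.34 ± 1.56 for Hoxa5, with adjusted p between 0.3624 and 0.9081. The order in which genes first passed the threshold by edgeR, Hoxa2 on Day 5 and then Hoxa3 and Hoxa5 on Day 6, is given as it stands and whether it differs between the genes was not tested.

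**Figure D3:**
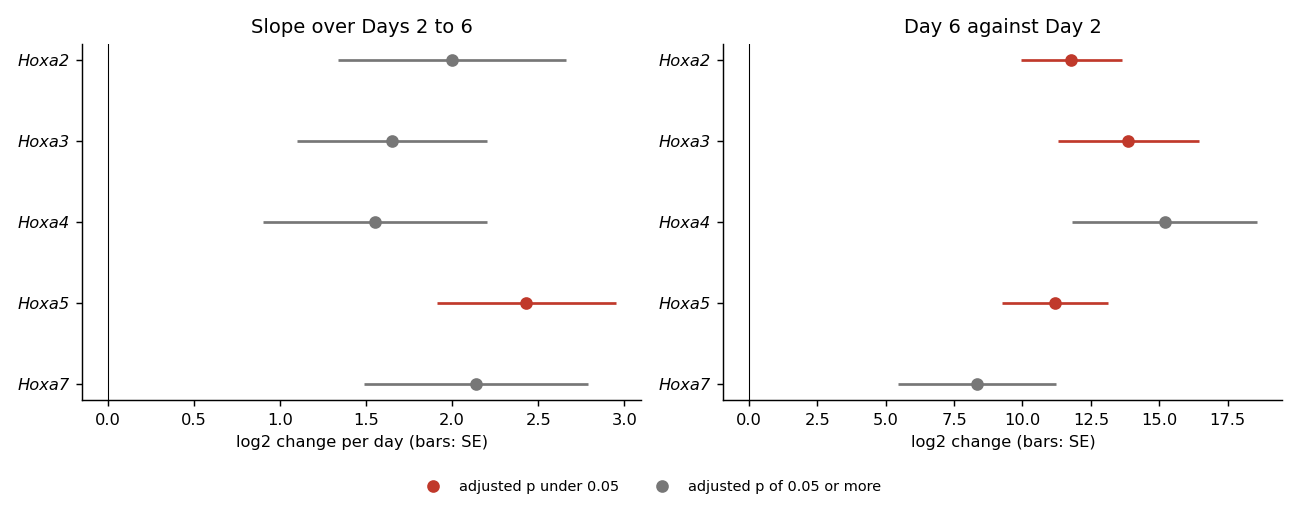
Fitted log2 changes (horizontal axes) of the 5 genes of the cluster that were detected on most days (vertical axes), by edgeR. Bars are approximate standard errors derived from the F statistic. The left panel gives the slope per day over Days 2 to 6 and the right panel Day 6 against Day 2. Red marks adjusted p under 0.05. All estimates are above 0, and Hoxa5 on the left and Hoxa2, Hoxa3 and Hoxa5 on the right passed.

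The step from Day 2 to Day 3 is given above. From Day 3 on, no step from one day to the next passed for any of the 8 genes by edgeR or DESeq2. Of all genes, 0% passed for Day 4 against Day 3, 0% for Day 5 against Day 4 and 0% for Day 6 against Day 5. At unadjusted p under 0.05 by edgeR, 1 of the 8 genes stood in the step from Day 3 to Day 4 and 0 in each of the later ones. From Day 4 to Day 5 the level of Hoxa5 differed 3.46-fold in the main experiment, and 9.77-fold in the pilot, the later day being higher, and from Day 5 to Day 6 1.23-fold and 3.94-fold. Without the higher of 2 pilot Day 6 plates the last value was 1.751-fold, and both plates lay above the 257.2 and 333.3 CPM of the pilot Day 5 plates.

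The 2 experiments differed in when Hoxa5 was detected. On Day 3 its share was 30.3% (26.1 to 34.9) of main and 1.45% (0.256 to 7.76) of pilot cells, and on Day 4 30.1% (24.5 to 36.4) and 7.02% (2.76 to 16.7). On Day 6 they stood at 61.9 and 74.7%. The fitted slope of Hoxa5 was 2.13 ± 0.70 log2 units per day higher in the pilot, with p = 0.01193 and adjusted p = 0.4055 by edgeR, and that of Hoxa7 2.38 ± 1.02 higher with adjusted p = 0.5893. None of the 6 genes tested passed for this difference by edgeR, and 0% of all genes did. By DESeq2 1 passed, Hoxa5 (adjusted p = 0.007053), with its share of all genes not given. At unadjusted p under 0.05 by edgeR stood 2 of the 6 and 1290 of all 15971 genes. Median detected genes per cell were 4145.5 for main and 1837 for pilot Day 3 cells, and 3114 and 1404 on Day 4. The part of this in the Hoxa5 shares was not tested.

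Single cells held few of the 8 genes at a time. At least 1 was found in 1.97% of main cells on Day 2 and 35.8% on Day 3, then 43.4% on Day 4, 86.5% on Day 5 and 78.2% on Day 6. In the pilot the shares were 0, 7.25, 10.5, 61.3 and 81.7%. The mean number of the 8 genes per cell went from 0.0197 on Day 2 to 1.49 on Day 5 and 1.32 on Day 6 of the main experiment, and from 0 to 1.48 on Day 6 of the pilot. At least 3 were found in 1.66% of main cells on Day 3, 13.2% on Day 5 and 11.6% on Day 6, and in 12.7% of pilot cells on Day 6. No thinned cell held more than 4. On Day 5 the share with at least 1 was 86.5% (82.4 to 89.8) of main and 61.3% (50.02 to 71.5) of pilot cells, and the intervals of the experiments overlapped on Day 6 and Day 2 but not on Days 3, 4 and 5.

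**Figure D4:**
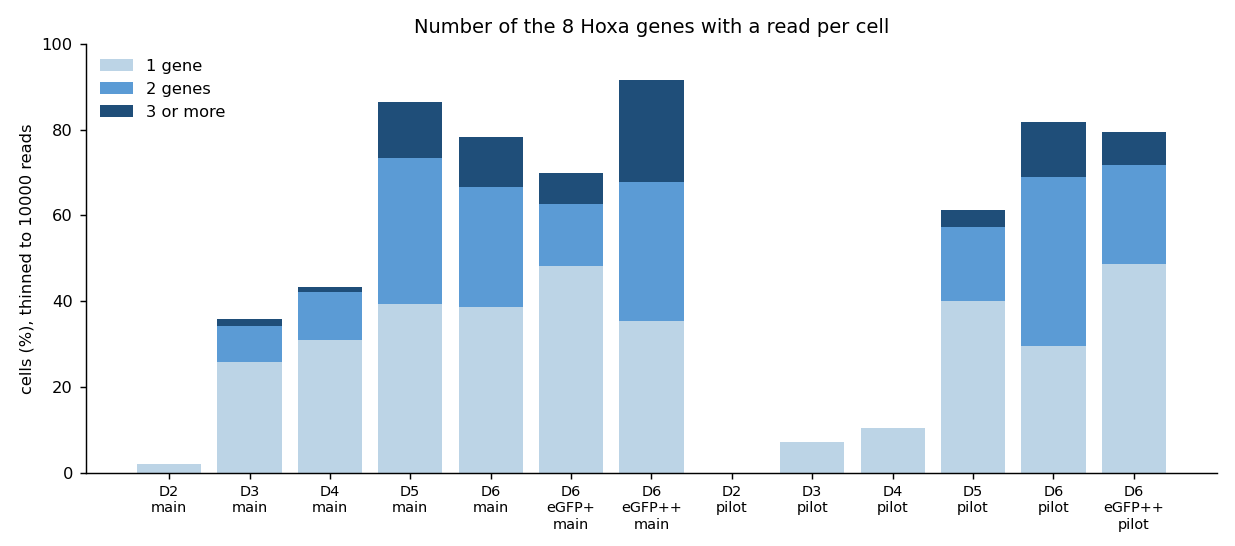
Percent of cells (vertical axis, thinned to 10000 reads) in which 1, 2 or at least 3 of the 8 genes had a read, stacked, for each group of the main and pilot experiments (horizontal axis). Bars start at 0 and the remainder to 100 are cells with none. Bars reach 86.5% on main Day 5 and 91.5% in main eGFP++ cells, and 10.5% on pilot Day 4.

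In most cells with any of the 8 genes, the one nearest to the 5′ side was Hoxa5, except on pilot Day 3. This held for 81.46% of such main cells on Day 3, 69.39% on Day 4, 85.11% on Day 5 and 75.09% on Day 6, and for 1 of 5 pilot cells on Day 3, 4 of 6 on Day 4, 34 of 46 on Day 5 and 51 of 58 on Day 6. Cells with a read of Hoxa6, Hoxa7, Hoxa9 or Hoxa10 made up 1.66% of main cells on Day 3, 2.45% on Day 5 and 4.52% on Day 6. Of these cells, 5 of 7 on Day 3, 8 of 8 on Day 5 and 14 of 16 on Day 6 also held a gene from Hoxa2 to Hoxa5. The few cells with a 5′ gene were therefore mostly cells with a 3′ gene, in groups where 35.3, 86.5 and 77.7% of all cells held one.

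Genes of the cluster were found together in the same cells to different degrees. On main Day 3, Hoxa5 had a read in 68.8% of cells with Hoxa3 and 27.2% of cells without, and 22 cells held both where 9.71 would if the 2 were independent. For Hoxa4 and Hoxa5 the Day 3 shares were 73.7 and 28.3%, with 14 cells against 5.76, and for Hoxa2 and Hoxa5 50 and 29.7%. On Day 6 the differences were smaller in the main experiment, at 75.4 and 58.6% for Hoxa5 with and without Hoxa4 and 68.6 and 59.04% with and without Hoxa3. Hoxa2 and Hoxa3 were together in 17 main Day 6 cells where 17.2 would be by independence. Cells with Hoxa5 had a median of 4557 detected genes against 3864 in cells without on main Day 3, and 3665 against 2107 on pilot Day 6. The order was the other way on main Day 2 (3246 and 4488, with Hoxa5 in 5 cells) and on pilot Day 5 (2956 and 3165). The part of cell quality in these overlaps was not tested.

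In the eGFP++ cells of Day 6, the experiments differed in direction for 3 of the genes. Hoxa5 was at 724 CPM in main eGFP++ cells, 1.51-fold of Day 6, and at 648 CPM in pilot eGFP++ cells, 0.574-fold of Day 6. The latter direction rests on 1 of 2 pilot Day 6 plates, which stood at 1593 and 501.5 CPM, and without the higher one the ratio was 1.292. Hoxa4 was at 138.1 and 25.4 CPM, 2.103-fold and 0.44-fold of Day 6, and Hoxa2 at 44.5 and 67.2 CPM, 0.927-fold and 2.096-fold. Hoxa3 was higher in both, at 1.205-fold and 2.4-fold of Day 6, and Hoxa7 was 1.45-fold and 1.26-fold of Day 6. Main plates of eGFP++ and Day 6 cells overlapped for Hoxa3, at 63.6 to 141.7 and 61.8 to 118.2 CPM. They also overlapped for Hoxa7, at 13.1 to 37.97 and 6.68 to 25.8 CPM. By edgeR none of the 8 genes passed for eGFP++ against Day 6, against 0.0311% of all genes, and 0 passed by DESeq2. At unadjusted p under 0.05 by edgeR stood 0 of the 8 and 1011 of all 16080 genes. The fitted difference was -0.02 ± 1.25 log2 units for Hoxa4 and -0.59 ± 1.24 for Hoxa5, and the median over all genes was -0.52. The sign of the Hoxa4 estimate flips under several alternatives, including other size factors (0.12), and that of Hoxa5 without the pilot Day 6 sum (2.24).

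After thinning, main eGFP++ cells had shares of Hoxa3, Hoxa4, Hoxa5 and Hoxa7 above those of Day 6, with overlapping intervals for Hoxa3 and Hoxa7. The Hoxa5 interval overlapped with that of main Day 5, and without thinning Day 5 was higher, at 92.5% against 88.3%. Hoxa5 was found in 79.8% (74.7 to 84.1) of main eGFP++ cells against 61.9% (56.7 to 66.8) on Day 6. Hoxa4 was found in 33.3% against 19.5% and Hoxa3 in 37.2% (31.8 to 43.01) against 29.7% (25.1 to 34.6). The intervals of Hoxa7 were 3.52 to 9.02 in main eGFP++ cells and 2.58 to 6.87 on Day 6. At least 3 of the 8 genes were found in 23.8% of main eGFP++ cells and 7.69% of pilot eGFP++ cells. In the pilot, Hoxa5 was in 64.1% (48.4 to 77.3) of eGFP++ cells and Hoxa4 in 5.13% (1.42 to 16.9), that is 2 of 39. Of Hoxa2, Hoxa3, Hoxa4, Hoxa5 and Hoxa7, each had a main share above that of Day 6 and a pilot share below, such as 35.9% against 38.03% for Hoxa3, whose pilot CPM was higher. The pilot intervals of Hoxa5 in the 2 groups overlapped, as did those of Hoxa4. Main plates of eGFP++ cells ranged from 601 to 885 CPM for Hoxa5, above all 4 Day 6 plates, and from 89.3 to 216.6 CPM for Hoxa4, overlapping with 36.1 to 98.2 on Day 6. Median detected genes were 2644 per eGFP++ cell and 2310.5 per Day 6 cell in the main experiment.

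The eGFP+ cells, with 1 plate and no replicate, had 514 CPM of Hoxa5, 72.6 of Hoxa4, 65.7 of Hoxa3 and 44.5 of Hoxa2, between 0.707-fold and 1.11-fold of main Day 6. Hoxa7 was at 23.1 CPM, of which 94.8% came from 1 cell, and 55.04% of the Hoxa3 reads also came from 1 cell. At least 1 of the 8 genes was found in 69.9% of these cells. Hoxa6, Hoxa9 and Hoxa10 had no read in 83 cells, which allows a share of up to 3.61%. The plate's cells had a median of 1524 detected genes, the lowest of the main groups.

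Across the 12 sums of Days 2 to 6 and eGFP++ cells, Pearson's r of log2 CPM was 0.93 for Hoxa2 and Hoxa5, 0.90 for Hoxa3 and Hoxa4, 0.88 for Hoxa3 and Hoxa5 and for Hoxa5 and Hoxa7, and 0.71 for Hoxa2 and Hoxa4. Hoxa6 had r between -0.23 and 0.16 with the others, from sums with few or no reads. The sums share the day and the experiment, so these are descriptions. By the same measure over all genes, Hoxa2 was most like Nr2f1 (0.991), a nuclear receptor of the developing nervous system, then Hmgb3 (0.978) and Meis1 (0.978), a homeodomain protein that binds DNA together with Hox proteins. Hoxa5 was most like Tshz1 (0.978), a zinc finger protein, Hoxb8 (0.968) and Hmgb3 (0.967). Hoxa4 was most like BC068157 (0.959), Hoxb3 (0.954) and Ankrd13b (0.952), Hoxa3 like Efna2 (0.986), an ephrin, Soga3 (0.972) and Tppp3 (0.971), and Hoxa7 like Tecr (0.965), Maml3 (0.960) and Crb2 (0.959). For Hoxa6, Hoxa9 and Hoxa10 the most alike genes rest on few reads and are not named.

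Other genes of the same system were counted from lists, with the share of all genes that passed the slope test, 4.18%, as the background. For counts at unadjusted p under 0.05 the background was 3119 of 15971 genes. In the Hoxb cluster 2 of 10 tested genes rose, Hoxb9 (2.52 ± 0.39 log2 units per day, adjusted p = 0.006147 by edgeR) and Hoxb8 (1.89 ± 0.44, 0.03599). For Day 6 against Day 2, 5 of the 10 passed by edgeR, where the share of all genes was 0.833%. In the Hoxc cluster 3 of 6 tested rose, among them Hoxc5 (2.73, 0.02688) and Hoxc6 (2.54, 0.03674), which are active in brachial motor neurons. In the Hoxd cluster 2 of 8 rose, Hoxd3 (3.10, 0.0143) and Hoxd4 (3.08, 0.02074). The median slope was 1.83 for the 6 tested genes of Hoxa2 to Hoxa10, 1.10 for Hoxb, 0.94 for Hoxc and 1.63 for Hoxd, against 0.02 for all genes. Hoxb9 and Hoxb8, the genes of Hoxb that passed by edgeR, belong to paralogue groups on the 5′ side of the one of Hoxa5. Rising slopes were not limited to them, since 7 of the 10 Hoxb genes had positive slopes at unadjusted p under 0.05. By DESeq2, 6 of the 10 passed, with its share of all genes not given.

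Among the proteins that bind DNA with Hox proteins, 0 of 9 passed for the slope by edgeR and 4 had unadjusted p under 0.05. Pbx3 stood at 0.68 log2 units per day (adjusted p = 0.07424 by edgeR). By DESeq2 4 passed, and the share of all genes is not given for any DESeq2 count of this paragraph. From Day 2 to Day 6, 2 rose by edgeR, where 0.833% of all genes passed. Of 16 tested retinoic acid receptors, binding proteins and enzymes 3 rose, among them Cyp26b1, which breaks retinoic acid down (3.03 log2 units per day, adjusted p = 0.007367). None of 5 tested genes among Cdx factors and other Hox activators passed by edgeR, with 2 at unadjusted p under 0.05 and 0 by DESeq2. Of 17 Polycomb and Trithorax genes, whose products keep Hox genes silent or active, 2 fell and none rose: Suz12, a subunit of the complex that methylates histone H3 at silent genes, fell by 0.73 log2 units per day (adjusted p = 0.01137), and Cbx7, a reader of that mark, by 0.44 (0.0214). Of the markers of other cell types, 0 of 6 mesoderm, 0 of 6 endoderm and 0 of 5 neural crest genes passed by edgeR, with 0, 2 and 1 at unadjusted p under 0.05 and 0, 1 and 1 by DESeq2. Their summed levels lay between 0 and 33.95 CPM in every group, and those of neural progenitors between 161.2 and 1380 CPM, with 1 of 7 genes rising and 1 falling.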

How the data were processed

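The deposited tables, 1 for each of 35 plates, hold read counts for each gene in each cell, whole numbers without normalisation or molecular identifiers. Per the submitters' processing notes, TopHat2 2.1.1, HTSeq 0.6.1 and the mm10 build were used, and the role of each, the settings and the use of strand are not given in the sources used here. Columns carry no header and took the day and experiment that the labels give for their plate. Summary lines of the counting took 34.92% of reads and spike-ins 6.16%, and both stayed out of sums and tests, as did 27 names not written alike in all tables and 40 columns that matched no sample.

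Counts of cells with at least 500 detected genes were summed per group and experiment. The 12 sums of Days 2 to 6 and eGFP++ cells, and the 10 without eGFP for slopes, went into edgeR 4.0.16 under R 4.3.3 (filterByExpr, TMM, quasi-likelihood test, prior count 0.125, threshold 0.05, two-sided, Benjamini-Hochberg over all genes), with 5 and 7 residual degrees of freedom. DESeq2 1.42.0 was an alternative, and the share of all genes that passed by it is not given here. The eGFP+ plate stayed outside the fits. Standard errors given with edgeR estimates are approximate: each is the absolute log2 change divided by the square root of the test's F statistic. The label naming the experiment pairs the sums and was a term of the fit. As a check, deviations of main from pilot sums correlated between groups at 0.0307 to 0.14 (median 0.0997 over 15 pairs of groups).

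Cells were thinned to 10000 reads with seed 1, which 15 kept cells could not reach. Python 3.11.15 was used for these steps, and the tests were tested on simulated data. The 8 genes and all lists were chosen with earlier results of these data known. Named besides the 8 are, from each list, up to 2 genes with the smallest adjusted p for the slope (some results are not reported here) and, for each of the 8, the 3 genes most alike in log2(CPM + 1). Motif letters, Hoxa11, Hoxa13 and overlapping genes were named after values were seen. Alternatives were other scalings, filters, tools, cell filters, thinning depths, plates as samples, leaving out each sum and, added after seeing the data, each pilot Day 6 plate.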

Additional observations from a re-analysis of the deposited data

Results flagged for a closer look

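Levels of the sparse genes differed between plates of 1 group in the main experiment. In 24 sets of plates checked, 6 had 1 plate far above the others. About 1 in 20 sets of evenly varying values would be picked out by chance, but where 1 or 2 cells hold the reads, 1 plate must stand above the rest, so the number of such sets says nothing about the plates. Hoxa6 was at 3.083 CPM in 1 of 4 Day 2 plates with 0 in the others, and at 2.268 CPM in 1 of 4 Day 5 plates with 0.2027 as the next value. Hoxa7 was at 0.6405 CPM in 1 Day 2 plate against 0.03544 in the next. Hoxa9 was at 0.2481 CPM in 1 Day 2 plate against 0. Hoxa10 was at 1.873 CPM in 1 of 5 Day 3 plates against 0, and at 0.4025 CPM in 1 Day 6 plate against 0.06421. These plate values rest on 1 to 4 cells with a read.

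The 2 experiments went opposite ways in 6 of 27 changes compared, and these differences were not tested. For eGFP++ against Day 6 the log2 ratio of CPM was -0.11 for main and 1.07 for pilot sums of Hoxa2, 1.07 and -1.18 for those of Hoxa4, and 0.6 and -0.8 for those of Hoxa5. The pilot direction of Hoxa5 turns without 1 of the 2 pilot Day 6 plates. For Day 4 against Day 3 it was 1.44 and -7.92 for Hoxa4, the pilot value against the floor of 3 reads, and -0.27 and 3.12 for Hoxa5. For Hoxa6 on Day 5 against Day 2 it was -0.83 and 3.17, the pilot value again against the floor.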

How the results depend on the processing

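With 2 experiments as replicates, counts of passing genes among the 8 depended on the tool and on single sums. The share of all genes that passed under each alternative is not given here. The counts below therefore show only how the calls moved and do not set the 8 genes apart from other genes. DESeq2 gave 4 for the slope over days, 1 for its difference between experiments, 4 for Day 3, 4 for Day 4, 5 for Day 5 and 5 for Day 6 against Day 2. Counting cells with a read in place of reads gave 4, 4, 4, 5 and 5 for the slope and Days 3 to 6 and 2 for Day 5 against Day 4. Plates of the main experiment as samples, which are not independent cultures, gave 4, 4, 4, 5 and 5 and 1 for Day 5 against Day 4. With no replicate block, that is without the experiment as a term, the slope gave 0 and Day 4 against Day 2 gave 1. Day 4 also gave 1 with no cell filter and 1 with cells of at least 1000 genes. Day 5 gave 0 without plates with few genes and 4 with only the groups compared. Leaving out 1 sum at a time gave 0 to 2 for the slope, 0 to 2 for Day 3, 0 to 2 for Day 4, 0 to 3 for Day 5 and 0 to 4 for Day 6. Only the pilot Day 4 sum, when left out, gave 2 for the slope, and either Day 4 sum left out gave 3 for Day 5. No setting gave a passing gene for Day 4 against Day 3, Day 6 against Day 5 or eGFP++ against Day 6.

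Slopes of Hoxa2, Hoxa3, Hoxa4, Hoxa5 and Hoxa7 and their changes against Day 2 given in the text kept their sign in every alternative run. The slope of Hoxa6 (0.22) was -0.14 with no replicate block, -0.01 over main plates and -0.18 to 2.88 with 1 sum left out. For eGFP++ against Day 6, Hoxa4 (-0.02) was 0.12 with DESeq2 size factors, 0.19 by DESeq2, 0.45 with no replicate block, 0.46 by cells, 0.02 without plates with few genes, 1.33 over main plates, 0.04 with only the groups compared and -0.93 to 0.84 with 1 sum left out. Hoxa5 (-0.59) was 0.28 by cells, 0.76 over main plates and -2.01 to 2.24 with 1 sum left out. The causes were not tested.

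The share of main Day 6 cells with any of the 8 genes (78.25%) was 67.51% when thinned to 5000 reads, 88.98% with no thinning and 67.23% with at least 2 reads required, and the pilot share (81.69%) was 97.18% with no thinning. Of 65 shares of single genes, 21, 37 and 27 moved by more than their interval under these settings. The days between the first and the last of Hoxa2 to Hoxa5 to reach the limit were 1 in the main experiment at 5%, 0 at 2% and 2 at 10%, and 1 in the pilot at each limit. At 50% of the highest CPM they were 0 for main and 2 for pilot sums, and at 25% they were 2 for both. Leaving out each pilot Day 6 plate, an alternative chosen after seeing the data, gave pilot Hoxa5 ratios of 1.292 and 0.4067 for eGFP++ against Day 6 and of 1.751 and 5.562 for Day 6 against Day 5.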
